A study of Mus musculus with 4 samples.

Results

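The genes described here are 10 mouse genes for secreted or shed proteins of the extracellular matrix and of blood vessel growth: Tgfbi, Hpse, App, Mcam, Esm1, Prok2, Vegfa, Thbs1, Fn1 and Vcan. They were taken by gene symbol from the 24706 genes of the files, and 9 of them were among the 10779 that were tested, those whose mean over the libraries reached 1 FPKM (fragments relative to library size and gene length). Several were chosen by their higher values in cko libraries of these files, so that their differences between groups are given as descriptions, without p-values.

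The study asked how loss of the inhibitory receptor PD-1 in myeloid cells alters these cells and the developing brain. RNA-seq was made from myeloid cells of mouse fetal liver in 4 libraries, 2 labelled wt and 2 labelled cko. The cko mice are PD-1f/f; LysM-Cre, in which Cre recombinase under the control of the lysozyme M gene (Lyz2) acts on a floxed part of Pdcd1 in myeloid cells, and the controls are PD-1f/f mice without Cre by the figures and wild-type mice by the methods. The age is given as postnatal day 2 in one place and as postnatal day 3 in another, and the cells as CD11b+ cells from flow cytometry in one place and as whole livers in another. The labels do not say whether the libraries came from separate animals or from pools, so p-values measure only the spread between these libraries. That spread may be technical in the cko group, while the wt libraries differ in sex-linked transcripts, as given below.

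Matrix proteins such as fibronectin and versican form the scaffold on which cells adhere, and cells read them through integrins and other surface receptors. The matrix also stores growth factors, many of them on heparan sulphate chains, and enzymes that cut these chains set them free. Vessel growth depends on the balance between factors that promote it, such as VEGF-A and prokineticin 2, and inhibitors such as thrombospondin-1. Neutrophils, monocytes and macrophages can release proteins of each kind.

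The libraries held 17691504 to 22212407 counted reads, so that 1 read on a gene of 1 kb was worth 0.045 to 0.0565 FPKM. The targeted gene Pdcd1 was read at 28.5 and 34.7 FPKM in the wt and at 17.1 and 21.4 FPKM in the cko libraries, replicate 1 first, and Lyz2, the gene whose promoter drives Cre, was lower in both cko libraries (log2 fold change -1.79, limma adjusted p = 0.183). Reads on Pdcd1 were thus present in both cko libraries, but a value per gene does not tell its floxed part from the rest. The wt replicate 2 library stood apart from the other 3: it held the Y-linked transcripts Ddx3y and Eif2s3y at 24.9 and 16.2 FPKM, against at most 0.0108 FPKM elsewhere, and Xist at 0.0119 FPKM against at least 4.91 FPKM elsewhere. Wt replicate 2 thus held the pattern of male cells and the other libraries that of female cells, so the wt libraries came from different animals. The part of sex in the differences between groups was not tested. These 3 genes were named after their values were seen. Across all tested genes, 203 (1.88%) were higher and 44 (0.408%) lower in cko libraries at a |log2 fold change| above 1 with an unadjusted p under 0.01, the threshold in the study's results text, and 82.2% of these calls were higher. With median-of-ratios scaling 69.2% of the calls were higher (146 and 65), and with quantile normalization 65.5% (150 and 79). The median log2 fold change of all tested genes was 0.09, and 0.00 and -0.02 under these scalings. At the threshold of the methods, which asks for an adjusted p under 0.05 and a |log2 fold change| of 1 or more, 0 genes (0%) passed in limma, with 1768 genes at an unadjusted p under 0.05 and a smallest adjusted p of 0.129, and voom on recovered reads also gave 0.

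Of the 10 genes, 7 lay past the first threshold as higher in cko libraries and 0 as lower, beside 1.88% and 0.408% of all tested genes. Both cko libraries lay above both wt libraries for these same 7 (Tgfbi, Hpse, App, Mcam, Esm1, Prok2 and Vcan), beside 33.6% of all tested genes, and below both for Thbs1, beside 18.0%. The values of Fn1 and Vegfa overlapped between the groups. The number past the threshold was 3 without wt replicate 2 and without cko replicate 2, 4 without wt replicate 1 or with median-of-ratios scaling, and 6 without cko replicate 1. Without wt replicate 2, the library with Y-linked transcripts, the log2 differences were 1.11 for Tgfbi, 1.10 for App, 1.09 for Mcam, 1.78 for Esm1, 1.37 for Prok2 and -0.32 for Thbs1, and those of Hpse, Fn1 and Vcan stand beside their values. Since the genes were chosen with these differences known, nothing is read from the counts. The members just inside the threshold by size were Hpse (log2 difference 1.06), Mcam (1.07) and App (1.10), and those outside were Fn1 (0.60) and Thbs1 (-0.26), with Vegfa (0.03) too low to be tested. Log2 differences are cko minus wt on the log2(FPKM + 1) scale, which understates the change of low genes, and standard errors come from the limma fit with n = 2 libraries per group. In bulk samples, fewer cells of a type and less RNA per cell cannot be told apart.

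**Figure D1:**
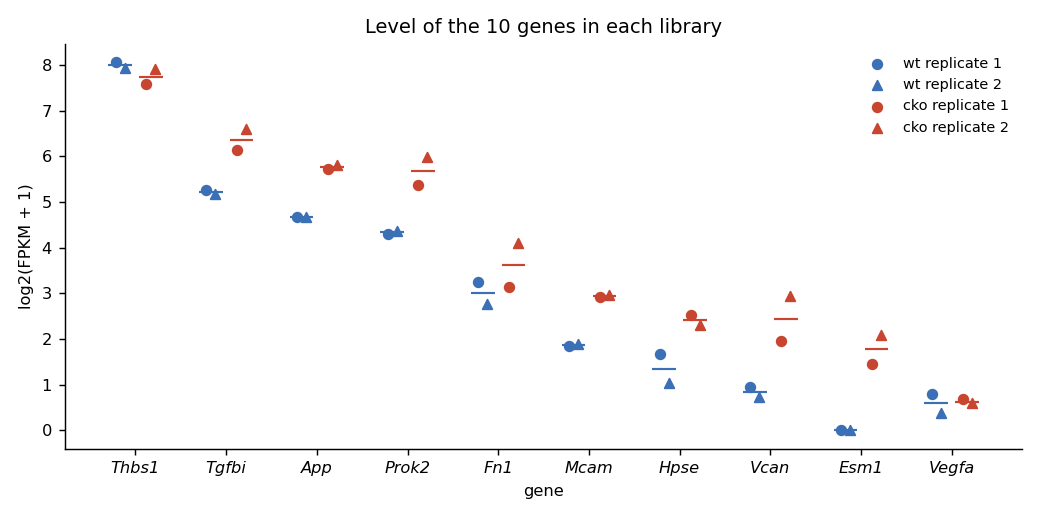
The level of each gene is plotted as log2(FPKM + 1) on the vertical axis, with circles for replicate 1 and triangles for replicate 2, blue for wt, red for cko, and lines at the group means. Thbs1 sits highest, between 7.58 and 8.06, Esm1 is at 0.00 in both wt libraries, and the groups overlap for Fn1 and Vegfa.

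The genes for matrix proteins differed widely in level. Thbs1, which encodes the vessel growth inhibitor thrombospondin-1 (chr2:118111876-118127133, plus strand, GRCm38), had 267 and 244 FPKM in wt replicates 1 and 2 and 191 and 239 FPKM in cko replicates 1 and 2. It was the highest of the 10 genes in every library and ranked between position 128 and 227 from the highest of all genes. Both cko libraries lay below both wt libraries, with cko replicate 2 next to wt replicate 2. The log2 difference was -0.26 (SE 0.16), and it was -0.09 without cko replicate 1 and -0.42 without cko replicate 2.

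Tgfbi encodes a secreted matrix protein that binds integrins and collagens (chr13:56609523-56639562, plus strand). Its values were 37.4 and 35.4 FPKM in the wt libraries and 69.6 and 96.1 FPKM in the cko libraries, from 2511 to 6414 reads. Both cko libraries were above both wt libraries, and the cko libraries differed more from each other than the wt libraries did. The means were 36.4 ± 1.43 (SD, n = 2) and 82.9 ± 18.7 FPKM (SD, n = 2), a ratio of 2.28, and the log2 difference was 1.15 (SE 0.19).

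Fn1, the gene for fibronectin, the adhesive glycoprotein of plasma and matrix (chr1:71585520-71653200, minus strand), had 8.6 and 5.82 FPKM in the wt libraries and 7.73 and 16.3 FPKM in the cko libraries. Only cko replicate 2 was above both wt libraries, and cko replicate 1 lay between them. The log2 difference of 0.60 (SE 0.36) was 0.11 without cko replicate 2, 1.09 without cko replicate 1 and 0.35 without wt replicate 2.

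Vcan encodes versican, a large chondroitin sulphate proteoglycan that binds hyaluronan (chr13:89655312-89742509, minus strand). It had 0.928 and 0.665 FPKM in the wt libraries and 2.89 and 6.66 FPKM in the cko libraries. On its long transcript these values stood for 298, 181, 783 and 1704 reads, so that counting error was small: the lower cko library held 41.8 RPM (counted reads relative to library size; 95% Clopper-Pearson interval 38.9 to 44.8, counting error only) and the higher wt library 13.4 (11.9 to 15.0). Both cko libraries were above both wt libraries, and cko replicate 2 was 2.31 times cko replicate 1, the widest gap between cko replicates among the 10 genes. The means were 0.796 ± 0.186 and 4.77 ± 2.67 FPKM (SD, n = 2 each), and the log2 difference was 1.61 (SE 0.36), or 1.12 without cko replicate 2 and 1.50 without wt replicate 2.

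The enzyme of the set is heparanase, encoded by Hpse (chr5:100679484-100719716, minus strand), which cuts heparan sulphate chains. Its values were 2.18 and 1.06 FPKM in the wt libraries (170 and 70 reads) and 4.73 and 3.94 FPKM in the cko libraries (312 and 245 reads). The groups did not overlap, and the wt libraries were further apart than the cko libraries, with wt replicate 2 at 0.486 times wt replicate 1. The log2 difference was 1.06 (SE 0.28), and it was 0.74 without wt replicate 2, the library that stood apart in its Y-linked transcripts, and 1.37 without wt replicate 1.

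Of the shed and membrane proteins, App encodes the amyloid precursor protein, whose ectodomain is released by secretases (chr16:84954440-85173707, minus strand). It had 24.4 and 24.6 FPKM in the wt libraries and 51.7 and 55.5 FPKM in the cko libraries. Replicates lay close together in both groups, at 24.5 ± 0.108 and 53.6 ± 2.73 FPKM (SD, n = 2 each), a ratio of 2.19. The log2 difference was 1.10 (SE 0.14), and 0.99 with median-of-ratios scaling.

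Mcam encodes the cell adhesion molecule CD146, best known from endothelial cells (chr9:44134469-44142727, plus strand). Its values were 2.61 and 2.71 FPKM in the wt libraries and 6.58 and 6.80 FPKM in the cko libraries, from 171 to 413 reads. As for App, each group varied little between replicates, and the cko libraries lay above the wt libraries. The log2 difference was 1.07 (SE 0.17), and 0.98 with median-of-ratios scaling.

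Esm1 encodes endocan, a secreted dermatan sulphate proteoglycan known as a product of endothelial cells (chr13:113209659-113218098, plus strand). It had 0 reads in both wt libraries and 69 and 122 reads in cko replicates 1 and 2, or 1.76 and 3.29 FPKM. Against a floor of 3 reads in each wt library (0.0644 and 0.076 FPKM), the cko mean was at least 35.9-fold higher, and the lower cko library was at least 23.1-fold above the higher floor. Its fitted log2 difference of 1.78 (SE 0.32) depended on the pseudocount and was 4.65 with a pseudocount of 0.1.

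Prok2 encodes prokineticin 2, a small secreted peptide that acts through G protein-coupled receptors and is known from neutrophils (chr6:99711299-99726392, minus strand). It had 18.8 and 19.7 FPKM in the wt libraries and 40.3 and 62.4 FPKM in the cko libraries, from 711 to 2115 reads. The groups did not overlap, and the wt libraries were closer to each other than the cko libraries. The means were 19.3 ± 0.632 and 51.3 ± 15.6 FPKM (SD, n = 2 each), a ratio of 2.67, with a log2 difference of 1.34 (SE 0.23).

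Vegfa encodes VEGF-A, the main growth factor of endothelial cells (chr17:46016993-46032369, minus strand). It was among the lowest of the 10 genes, at 0.746 and 0.31 FPKM in the wt libraries and 0.598 and 0.501 FPKM in the cko libraries, from 71, 25, 48 and 38 reads. Both cko libraries fell between the wt libraries, which held 3.2 RPM (95% Clopper-Pearson interval 2.5 to 4.03, counting error only) and 1.33 RPM (0.86 to 1.96). The wt replicates differed beyond counting error, and no difference between groups could be seen beside that spread. The log2 difference was 0.03 with no filter on low values and 0.14 with voom on recovered reads.

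**Figure D2:**
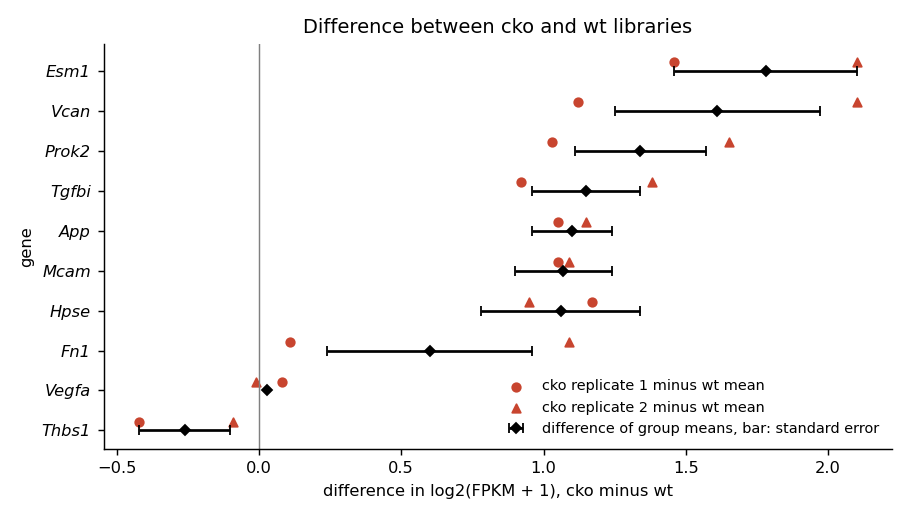
The horizontal axis shows differences in log2(FPKM + 1) between cko and wt libraries, with black diamonds for the difference of group means, bars for its standard error (none for Vegfa, which was not tested) and red symbols for each cko library minus the wt mean. The cko libraries nearly coincide for App (1.05 and 1.15) and Mcam (1.05 and 1.09) and are far apart for Vcan (1.12 and 2.10) and Fn1 (0.11 and 1.09).

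Among themselves the genes differed in how the 2 cko libraries related to each other. The cko replicate 2 value was above the cko replicate 1 value for 8 of the 10 genes, from 1.03 times for Mcam to 2.31 times for Vcan, and below it for Hpse (0.832 times) and Vegfa (0.839 times). In the wt group, replicate 2 was above replicate 1 for 3 of the 10 genes, and Esm1 was at 0 in both. The shares of all tested genes with these orders were not counted, so nothing is read from these counts. The most alike profiles over the 4 libraries, by the Euclidean distance between centred log2(FPKM + 1) values, were those of App and Mcam (0.0553), followed by Tgfbi and Prok2 (0.241). Esm1 and Vcan were 0.332 apart. By the annotation in the files, 6 of the 10 genes carry the term angiogenesis (Tgfbi, Mcam, Esm1, Prok2, Vegfa and Fn1) and 6 carry cell adhesion (Tgfbi, App, Mcam, Thbs1, Fn1 and Vcan). Tgfbi, Esm1 and Vcan lie on chromosome 13.

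Other genes with the most similar profiles over the 4 libraries were taken as the nearest 2 among all tested genes for each member that spanned more than 1 on the log2 scale. For Tgfbi these were Plscr1 (distance 0.0438; 92.8, 85, 172 and 230 FPKM in wt replicates 1 and 2 and cko replicates 1 and 2) and Rhov (0.105). Fn1 was nearest to Slc44a1 (0.0484) and Tnfrsf23 (0.0582), with cko replicate 2 highest in both. Vcan was nearest to Casp6 (0.0965) and Irf1 (0.12), an interferon-induced transcription factor with 25.9, 21.2, 47.4 and 102 FPKM. Prok2 was nearest to Susd6 (0.0716) and Ddx28 (0.145). App was nearest to Gm45822 (0.0639) and Alas1 (0.0874), the housekeeping enzyme of heme synthesis, at 115, 113, 220 and 250 FPKM. The nearest genes of Mcam were Gm22378 (0.0442) and Gm45822 (0.101), those of Hpse were Gm22933 (0.129) and AC173210.4 (0.134), and those of Esm1 were Gm22154 (0.114) and Gm22858 (0.233). With 4 libraries such distances describe the profiles only. Thbs1 spanned 0.48 and Vegfa was not tested, so no gene was named for them.

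Promoter sequence was looked up for all 10 genes, and Thbs1 and Fn1 had no window in the reference. RefSeq promoter windows (GRCm38.p6, 250 bases before to 50 after a start) matched 8 of the 10 genes in 9 windows, 2 of them for Vegfa. Those of Prok2 (chr6:99726343-99726642, minus strand), Esm1 (chr13:113209409-113209708, plus strand) and Vcan (chr13:89742463-89742762, minus strand) are shown, since Prok2 alone held an AP-1 and a TATA match, and Esm1 and Vcan had the largest log2 differences. Capitals mark matches, on either strand, of an NF-kB motif (GGG, any 5 bases, then CC), AP-1 (TGANTCA), the hypoxia core (ACGTG or GCGTG) and a TATA box (TATAAA), while GC box matches are left in lower case.
Prok2: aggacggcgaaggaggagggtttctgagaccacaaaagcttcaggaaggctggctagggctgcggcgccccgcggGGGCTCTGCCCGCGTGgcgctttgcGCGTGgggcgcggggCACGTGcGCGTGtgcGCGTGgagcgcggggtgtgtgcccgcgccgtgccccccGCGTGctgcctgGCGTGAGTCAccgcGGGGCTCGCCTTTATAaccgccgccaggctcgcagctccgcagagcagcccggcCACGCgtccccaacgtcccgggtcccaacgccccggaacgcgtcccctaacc
Esm1: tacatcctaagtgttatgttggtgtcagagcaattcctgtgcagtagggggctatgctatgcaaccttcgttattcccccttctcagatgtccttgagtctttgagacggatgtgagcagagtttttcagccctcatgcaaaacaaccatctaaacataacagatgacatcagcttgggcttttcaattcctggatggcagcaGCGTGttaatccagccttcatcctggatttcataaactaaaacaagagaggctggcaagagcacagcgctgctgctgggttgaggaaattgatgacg
Vcan: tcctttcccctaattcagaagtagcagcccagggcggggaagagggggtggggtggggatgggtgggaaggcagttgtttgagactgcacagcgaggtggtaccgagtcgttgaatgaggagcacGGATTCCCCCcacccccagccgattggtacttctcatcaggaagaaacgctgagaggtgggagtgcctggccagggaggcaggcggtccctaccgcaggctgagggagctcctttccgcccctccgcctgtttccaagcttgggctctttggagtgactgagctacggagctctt

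The Prok2 window held the AP-1 match at position -67 from the start, beside 7.81% of the 32851 windows of the reference that were searched. The window also held the TATA match, on the strand opposite to the gene, beside 13.6%. Over both strands the Prok2 window held 9 hypoxia core matches, of which 7 were GCGTG. The others were a single CACGTG read on each strand. Windows with any GCGTG were 32.4% of all windows, and those with any ACGTG 19.6%. These shares are no background for a number of matches in 1 window. Esm1 held a single GCGTG match at position -47. Vcan held an NF-kB match at position -125 on the strand opposite to the gene. The NF-kB letters occurred in the windows of 6 of the 8 genes (Hpse, Mcam, Prok2, Tgfbi, Vcan and Vegfa), against 50.8% of all windows, and can overlap the GC box (GGGCGG), which was in the windows of 6 genes and in 35.7% of all windows. The GC content was 46.3% for Esm1, 61.0% for Vcan and 73.7% for Prok2, and the median over all windows was 52.7%. A match is a description of the letters and not a binding site.

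**Figure D3:**
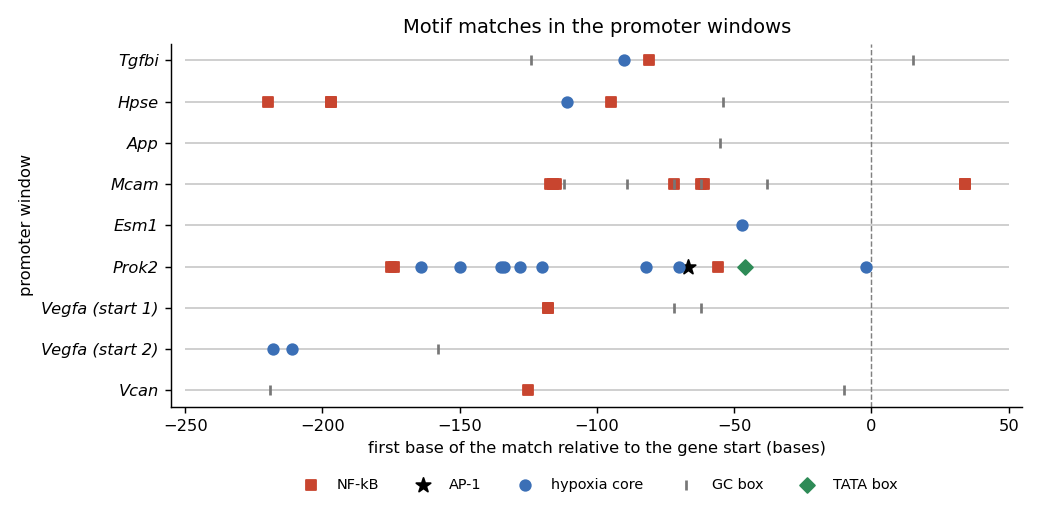
Symbols mark motif matches along the promoter windows of 8 genes, with the distance from the gene start in bases on the horizontal axis and 1 line per window. Prok2 alone holds an AP-1 (star) and a TATA match (diamond), and App holds a GC box match only.

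The receptors, relatives and processing enzymes of these proteins were examined in 7 gene lists that hold none of the 10 genes. Of 124 genes in the files, 69 were tested, and 2 of them, Itga5 and Areg, were past the unadjusted threshold, both higher in cko libraries, beside 1.88% of all tested genes. By unadjusted p under 0.05 alone, 10 of the 69 were higher and 1 was lower, beside 11.4% (1234) and 4.95% (534) of all tested genes, and 0 passed at an adjusted p under 0.05 (limma). The median log2 fold change over the 69 genes was 0.14, against 0.09 over all tested genes. By list it was 0.34 for receptors and binding partners, 0.20 for secretases, -0.05 for matrix proteases and inhibitors and -0.10 for other angiogenic and growth factors. It was 0.10 for hypoxia response genes and -0.03 for collagens and basement membrane genes. For relatives of the 10 genes it was 0.37, which rests on 2 tested genes, and 0.02 over 15 genes with no filter. Where 4 values follow each other, they stand in the order of wt replicates 1 and 2 and cko replicates 1 and 2.

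Of 17 tested receptors and binding partners, 16 had a log2 fold change above 0, as 60.4% of all tested genes did, and 5 (Itga5, Tlr2, Cd44, Selplg and Itgal) were at an unadjusted p under 0.05, all higher, beside 11.4% of all tested genes. Itga5, which encodes the alpha subunit of the main fibronectin receptor, had 2.41 and 2.68 FPKM in the wt libraries and 11.1 and 24.0 FPKM in the cko libraries. All its cko values were above its wt values, with a log2 fold change of 2.29 (SE 0.35, unadjusted p = 0.000864 and adjusted p = 0.183 in limma), and it lay past the threshold with each library left out in turn and under the other filters, scalings and models run for it. Its partner Itgb1 had 26.1 and 15.5 FPKM in the wt libraries and 20.6 and 32.1 FPKM in the cko libraries, which overlap. Itgb2, the beta subunit of the leukocyte integrins and the most abundant gene of the list, had 491, 539, 536 and 497 FPKM in wt replicates 1 and 2 and cko replicates 1 and 2 (log2 fold change 0.00). Cd47, a receptor for thrombospondin-1, had 179, 172, 200 and 215 FPKM (0.24, adjusted p = 0.41 in limma). Receptors that would answer the vessel growth factors were low: Prokr1 and Prokr2, the prokineticin receptors, were at most 0.477 FPKM in every library, and the VEGF receptor gene Kdr had 4.36, 3.42, 3.96 and 3.96 FPKM. The versican partners Tlr2 (31.5, 17.2, 57.2 and 159 FPKM) and Cd44 (101, 99.3, 143 and 210 FPKM) had log2 fold changes of 1.99 and 0.79. Their unadjusted p in limma was 0.0101 and 0.0109, and neither passed, Cd44 also by the size of its change. Tlr2 passed with a pseudocount of 0.1, a filter at 5 FPKM, quantile normalization or voom. Without cko replicate 1 the log2 fold changes were 2.72 for Tlr2 and 1.07 for Cd44. Genes of this list other than Itga5, Itgb2 and Cd47 were named after their values were seen.

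Other angiogenic and growth factors gave 6 tested genes, with 1 past the threshold. This was Areg, the EGF receptor ligand amphiregulin, at 0.482 and 0 FPKM in the wt libraries (13 and 0 reads) and 2.90 and 3.91 FPKM in the cko libraries (66 and 84 reads). The cko libraries were above the wt libraries, with a log2 fold change of 1.85 (SE 0.31, unadjusted p = 0.00123 and adjusted p = 0.183 in limma), and the call was lost with voom on recovered reads and without cko replicate 2. Its relative Ereg, named after its values were seen and too low to be tested, had 0 reads in both wt libraries and 86 and 173 reads in cko replicates 1 and 2. Hgf, the hepatocyte growth factor, had 3.21, 3.59, 2.21 and 2.32 FPKM (-0.43, adjusted p = 0.341 in limma), and Tie1, an endothelial receptor kinase, had 3.54, 2.26, 2.95 and 2.16 FPKM (-0.12).

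None of the 10 tested secretase genes was past the threshold, and Aph1a, higher at 8.69, 7.04, 13.4 and 11.9 FPKM, was the 1 gene at an unadjusted p under 0.05 (limma). Ncstn, a subunit of gamma-secretase, had 50.6, 51.7, 54.2 and 58.1 FPKM, with a log2 fold change of 0.13 (adjusted p = 0.652 in limma). Among 9 tested matrix proteases and inhibitors 0 were past the threshold, and 2 were at an unadjusted p under 0.05 (limma), 1 of them lower. The higher one was Mmp19 (1.13, 0.376, 1.74 and 3.28 FPKM), named like Aph1a after its values were seen. The lower one was Mmp8, neutrophil collagenase, at 1109 and 1180 FPKM in the wt libraries and 805 and 764 FPKM in the cko libraries (-0.54, SE 0.13, adjusted p = 0.214 in limma). Plaur, the urokinase receptor, had 607, 670, 649 and 552 FPKM.

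Of the 19 tested hypoxia response genes, of a pathway known to induce Vegfa, 0 were past the threshold and 2, both higher, were at an unadjusted p under 0.05 (limma), Pgk1 and the glucose transporter gene Slc2a1 (38.7, 19.7, 47.0 and 102 FPKM), the latter named after its values were seen. The glycolytic genes Ldha (318, 303, 345 and 365 FPKM) and Pgk1 (191, 213, 264 and 265 FPKM) were the most abundant, with log2 fold changes of 0.19 and 0.39 (adjusted p = 0.487 and 0.261 in limma). Collagens and basement membrane genes gave 6 tested genes with 0 past the threshold and 0 at an unadjusted p under 0.05 (limma). Their most abundant members were Sparc (8.33, 6.23, 6.63 and 8.73 FPKM) and Col4a1 (2.74, 2.13, 2.76 and 3.15 FPKM). Relatives of the 10 genes were mostly low, with 2 of 15 tested, Aplp2 at 9.66, 9.55, 10.2 and 12.1 FPKM and Alcam at 1.26, 0.709, 1.52 and 2.28 FPKM, neither past the threshold.

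**Figure D4:**
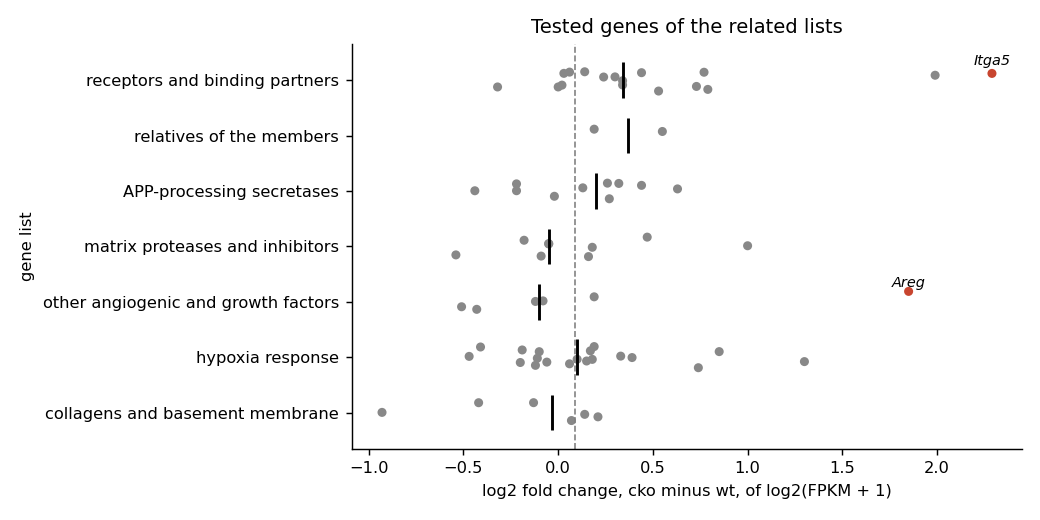
Each point is the log2 fold change of a tested gene, cko minus wt on the log2(FPKM + 1) scale, with 1 row per list, black lines at list medians and a dashed line at the median of all tested genes (0.09). Red points are past the unadjusted threshold: Itga5 at 2.29 and Areg at 1.85.

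Some of the 10 genes are known as products of other cells, so markers of those cells were read in the same libraries. The 13 endothelial markers summed to 78.8 and 55.2 FPKM in the wt libraries and 63.6 and 74.4 FPKM in the cko libraries, which overlap. Their median log2 fold change over 12 tested genes was 0.01, and Eng (19.8, 12.7, 14.5 and 13.6 FPKM) and Lyve1 (18.6, 13.9, 13.6 and 19.7 FPKM) were the most abundant. The exception was Stab2, a scavenger receptor of the liver sinusoid named after its values were seen, with 0.319 and 0.315 FPKM in the wt libraries and 3.61 and 4.76 FPKM in the cko libraries (1.97, SE 0.24, adjusted p = 0.183 in limma). Its log2 fold change was 1.97 without either wt replicate, 2.13 without cko replicate 1 and 1.81 without cko replicate 2. Esm1, Mcam and the marker Stab2 were higher in cko libraries, while the summed endothelial level overlapped between the groups. Whether endothelial cells add to the values of Esm1 and Mcam was not tested.

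Stromal and stellate markers summed to 10.5 and 17 FPKM in the wt libraries and 8.36 and 4.52 FPKM in the cko libraries, with Dcn, the gene for decorin, past the threshold as lower (4.41, 3.72, 1.50 and 0.765 FPKM; -1.27) and Acta2 at 1.52, 3.34, 2.43 and 1.81 FPKM. The call of Dcn was lost without wt replicate 1, without wt replicate 2 and without cko replicate 2. Megakaryocyte and platelet markers, of cells that hold much thrombospondin-1, summed to 27, 12.3, 11.2 and 18.5 FPKM, with 0 of 2 tested genes past the threshold and Pf4 at 17.2, 7.81, 6.88 and 14.3 FPKM and Itga2b at 3.87, 0.828, 1.98 and 1.56 FPKM. Hepatocyte markers summed to 88.3, 151, 64.4 and 75.6 FPKM, with Apoa1 past the threshold as lower (-1.18) and Ahsg at -0.81. Apoa1 was not past it without wt replicate 2 (-0.87), without cko replicate 1 and without cko replicate 2. No marker of any list was at 0 in all libraries. The part of any of these cells in the values of the 10 genes was not tested.

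Myeloid markers, which fit the label of the cells, were high in every library and led by neutrophil genes. Neutrophil markers summed to 160737 and 136508 FPKM in the wt libraries and 109870 and 91323 FPKM in the cko libraries, with S100a9 and Ngp highest and with Camp and S100a8 (named after their values were seen) past the threshold as lower, 2 of 12. The markers differed in direction: by unadjusted p under 0.05 (limma) 6 of 12 were lower and 3 were higher, beside 4.95% and 11.4% of all tested genes. The higher 3, also named after their values were seen, were Cxcr2 (199, 179, 230 and 317 FPKM), Csf3r (81.5, 80.3, 104 and 140 FPKM) and Elane (617, 646, 945 and 749 FPKM). With quantile normalization the log2 fold changes of Camp and S100a8 were 0.00 and 0.19, and both calls were also lost with no filter, without wt replicate 1 and without cko replicate 2. Monocyte markers summed to 539, 507, 524 and 675 FPKM with 0 of 10 past the threshold, and macrophage markers to 469, 332, 400 and 705 FPKM with 1 of 10, Hmox1, past it as higher (1.28), a call lost with no filter, median-of-ratios scaling, no trend or a replicate block, and without wt replicate 1, wt replicate 2 or cko replicate 2 (0.82 without the last). In both lists cko replicate 2 was highest. It was also highest for the neutrophil markers Cxcr2 and Csf3r, though not for Elane, Camp or S100a8. The same held for 7 of the 10 genes (Tgfbi, App, Mcam, Esm1, Prok2, Fn1 and Vcan). The share of all tested genes with cko replicate 2 highest was not counted, so this order is not particular to any list. Csf1r, the receptor for macrophage colony-stimulating factor, had 40.9, 33, 45.6 and 113 FPKM, and Ly6c2 343, 360, 333 and 315 FPKM, and the complement gene C1qa 118, 91.8, 86.5 and 140 FPKM. Erythroid markers summed to 3733, 2348, 1431 and 1527 FPKM, with 1 of 10 past the threshold as lower, Hbb-bs, and Hba-a1 highest at 1961, 1366, 826 and 840 FPKM. The Hbb-bs call was lost with no filter, no trend or a replicate block and without wt replicate 1, cko replicate 1 or cko replicate 2. Median log2 fold changes of the tested markers were 0.36 for monocytes, 0.10 for macrophages, -0.46 for neutrophils (0.05 with quantile normalization), -0.70 for erythroid cells, -0.67 for stromal cells, -0.44 for hepatocytes and -0.16 for megakaryocytes. The part of these shifts in the differences of the 10 genes was not tested.

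**Figure D5:**
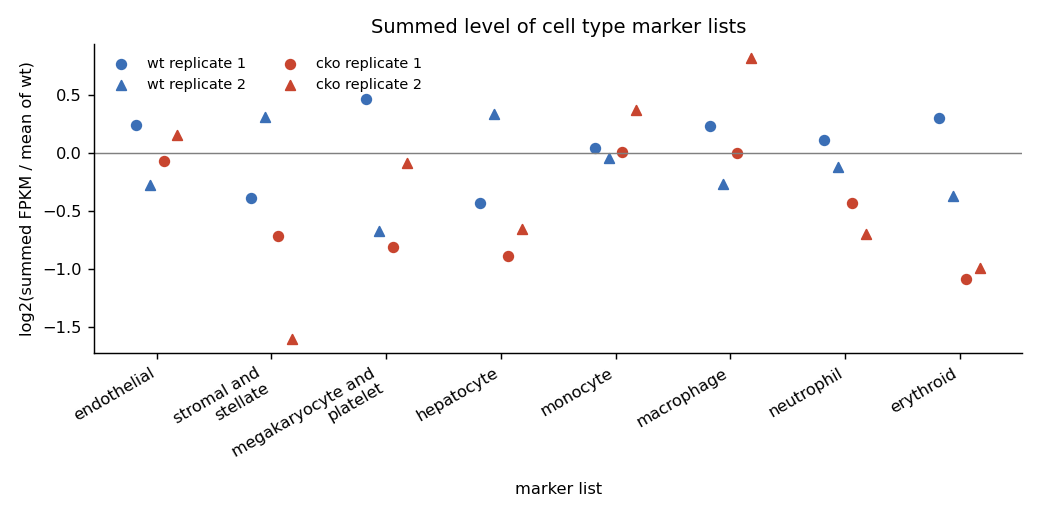
The vertical axis shows the log2 ratio of the summed FPKM of each marker list to its wt mean, with circles for replicate 1, triangles for replicate 2, blue for wt and red for cko. Both cko libraries lie below both wt libraries for the stromal, hepatocyte, neutrophil and erythroid lists, and cko replicate 2 is highest for the monocyte and macrophage lists.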

How the data were processed

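RNA-seq of mouse myeloid cells was analysed in 4 libraries, grouped by the genotype in their labels (2 wt, 2 cko). The authors deposited FPKM values per gene and library, not scaled between libraries, for 24706 genes. The study's methods call the unit RPKM. The submitters' processing notes name Bowtie2 2.2.3, TopHat2 2.0.12, HTSeq 0.6.0 and mm9, whereas 92.61% of the gene positions in the files were identical to GENCODE M21 (GRCm38), and those positions are given here. Reads were recovered for 98.77% of the genes from the whole-read steps of the values, with 99.94% to 99.97% of single-exon values whole within 0.05 read. Intervals and floors of 3 reads cover counting error only.

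Groups were compared in R 4.3.3 by limma 3.58.1, whose lmFit and trended eBayes were applied to log2(FPKM + 1). No covariate was used. Genes whose mean over the libraries was under 1 FPKM were left out, and p-values of the other 10779 were adjusted by the Benjamini-Hochberg method. Simulated reads were also run through the fit. Their changes were larger than those of most of the 10 genes, so this run does not show how the fit does on these genes. For a single gene, the smallest two-sided p that exact permutation of 2 against 2 libraries allows is 0.333. Alternatives were quantile and median-of-ratios scaling, a pseudocount of 0.1, no filter or one at 5 FPKM, no variance trend, a block for the replicate number, omission of each library, and voom on the recovered reads of genes that averaged 10 reads or more.

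The 10 genes and all lists were chosen with earlier results of these data known, as were the tests. Named besides the 10 genes are list genes past the threshold, the 2 most abundant tested genes of each list, the nearest 2 genes by profile, Pdcd1 and Lyz2. Other genes were named after their values were seen, which is said beside them. One gene that this rule names is not reported here. Gene ontology terms were read from the deposited files. Tables and figures were made with Python 3.11.15 and matplotlib 3.10.9.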

Additional observations from a re-analysis of the deposited data

How the results depend on the processing

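The number of genes past the unadjusted threshold was 247 (203 higher and 44 lower). It fell to 126 (101 higher, 25 lower) with a filter at 5 FPKM, which leaves 5813 genes to test. The lower genes numbered 27 with no filter and 79 with quantile normalization, and the cause was not tested. With each library left out in turn, the total ranged from 131 to 462, the higher genes from 108 to 393, the lower genes from 23 (without cko replicate 2) to 70 (without wt replicate 2) and the genes of the related lists from 1 to 6 (2 with all libraries). The lowest total came without cko replicate 2 and the highest without cko replicate 1, and without wt replicate 1 it was 147. Of the 10 genes, 3 of the 9 tested lay past the threshold without cko replicate 2 and without wt replicate 2, 4 without wt replicate 1 and with median-of-ratios scaling, and 7 with no trend.

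Deviations of same-numbered libraries did not move together (correlation across genes -0.163). With 2 libraries per group this cannot decide whether the numbers pair the samples, and the labels do not say. A replicate block gave 258 genes, and with the crossed pairing, added after seeing the data, 363, of which 1 also passed an adjusted p under 0.05, which 0 did under the other alternatives.

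Over the alternatives, 93 of 106 log2 differences of the 10 genes stayed within 1 SD between replicates of the value given. The other 13 moved by that much or more, and 0 changed sign. Most of these values could not move further than that. A change of filter, no trend and a replicate block leave the difference as it is, and leaving out 1 library shifts it by at most this SD. The count of 93 is therefore no measure of stability. The differences ranged from 0.92 to 1.38 for Tgfbi, 0.11 to 1.09 for Fn1, 0.74 to 1.47 for Hpse, 1.12 to 2.46 for Vcan, 1.46 to 7.68 for Esm1 and -0.42 to -0.09 for Thbs1. Of 622 values of other named genes, 560 kept their side of the threshold, 30 of them with a change of sign, 49 lost it and 11 gained it. The other 2 were Camp and S100a8 with quantile normalization, at 0.00 and 0.19. Of 226 list medians, 34 moved by more than the spread between replicates and 22 changed sign. The neutrophil median of -0.46 was 0.05 with quantile normalization, which makes the top ranks equal between libraries, and -0.57 with median-of-ratios scaling. The filter at 5 FPKM gave no value for Esm1, Hpse, Mcam and Vcan, and Vegfa had values with no filter and with voom only. Low reads (25 to 71) and the gap between the wt replicates limit Vegfa, and depth limits the wt values of Esm1, at 0 reads.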

Other observations

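Genes that carry the same gene ontology terms in the files, without the 10 genes, were read after the values were seen. Since several of the 10 genes were chosen as higher in cko libraries under such terms, nothing is read from the counts by term. Of 111 tested genes under angiogenesis, 5 were past the unadjusted threshold as higher in cko libraries and 0 as lower (beside 1.88% and 0.408% of all tested genes), with a median log2 fold change of 0.11. They were Ccl2, the monocyte chemoattractant, at 16.4 and 13.7 FPKM in the wt libraries and 36.1 and 106 FPKM in the cko libraries, the heme oxygenase gene Hmox1 at 84.3, 68.7, 135 and 257 FPKM, Tnfaip2 at 4.14, 4.06, 9.73 and 23.0 FPKM, Aggf1 at 5.30, 6.08, 12.8 and 12.2 FPKM, and CT025531.1, which rests on 5, 10, 34 and 44 reads. Each of the 5 calls was lost under some alternatives: Ccl2 and Tnfaip2 with no filter and without either wt replicate (Ccl2 also with no trend), Hmox1 as given above, Aggf1 with both scalings, without wt replicate 1 and without cko replicate 1, and CT025531.1 with voom, without wt replicate 1 and without cko replicate 2. In Ccl2, Hmox1 and Tnfaip2, cko replicate 2 was well above cko replicate 1, and in Aggf1 the cko libraries were close together.

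Of 119 tested genes under cell adhesion, 4 were past the threshold as higher and 0 as lower, with a median log2 fold change of 0.22: Aggf1, Stab2, Emilin2 and Cass4. Emilin2, an elastic fibre glycoprotein, had 21.2 and 29.3 FPKM in the wt libraries and 60.6 and 60.5 FPKM in the cko libraries, a log2 fold change of 1.25 (SE 0.19, adjusted p = 0.183 in limma). It was also the 1 gene of 34 tested under proteinaceous extracellular matrix past the threshold. Cass4, an adaptor of focal adhesions, had 3.57, 2.45, 8.06 and 24.3 FPKM, and its call was lost with no filter, median-of-ratios scaling, no trend or a replicate block, and without wt replicate 1, wt replicate 2 or cko replicate 2.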
